A study of Homo sapiens with 22 samples.

Results

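The regions described are the 10 kb bins of the human genome build hg38 that lie within 1 Mb of either end of chromosomes 1 to 22 and hold at least 10 TTAA sites. The bins were laid from each chromosome end inward, and the rule took 3552 of the 271216 autosomal bins with at least 10 TTAA sites. They fall on 39 of the 44 autosomal ends, 17 on short arms (p) and 22 on long arms (q), with 74 to 99 bins per end. The short arms of chromosomes 13, 14, 15, 21 and 22 gave no bin. Of 3734 bins with assembled sequence in these megabases, 182 had fewer than 10 TTAA sites and were left out. The rule used position and sequence only, so the insertions took no part in choosing the bins.

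The insertions come from K562, a human leukemia cell line, in a calling card (CC) experiment. In this assay a piggyBac transposon (the donor) is cut and pasted into TTAA tetranucleotides by a helper that encodes the transposase, and the self-reporting transposon makes an RNA from which its position is read. K562 cells were electroporated with 5 µg of a barcoded, puromycin-resistant donor and 5 µg of helper, plated in sets of 3 transfections and selected with 2 µg/ml puromycin for 11 days. All libraries share the cell line, the donor and the selection. One group of 10 libraries received the hyPBase helper (WTHYPB in the titles) and the other group of 10 received hyPBase-centrip (WTHYPBcentrip). How hyPBase-centrip differs from hyPBase is not given in the sources used here, and no library without a helper was analysed. A helper and how its libraries were prepared cannot be told apart, and the labels do not say whether every library had transfections of its own, so the p-values measure the spread between libraries, which may be partly technical.

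Subtelomeres are the stretches just inside the tandem TTAGGG repeats that cap human chromosomes. Their outer part is a patchwork of segments duplicated between chromosome ends, which carry gene families such as the OR4F olfactory receptors, and farther in lies unique sequence that in many arms is rich in genes and in GC. piggyBac is known to insert more often in open, transcribed chromatin and near gene starts than elsewhere.

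The sequences of these bins carried the marks of chromosome ends. Telomere-type repeats, searched as 2 copies of TTAGGG in a row or of its reverse complement CCCTAA, were present in 82 of the 3552 bins (2.31%), in 48 of 19379 bins 5 to 10 Mb from the same ends (0.248%), and in 0.255% of all autosomal bins. GC content was 47.5% in the subtelomeric bins and 43.3% in the interior bins. The start of a protein-coding gene lay in 13.0% of the subtelomeric and 7.39% of the interior bins. TTAA sites, the target of the transposon, were sparser near the ends, with 45.7 and 57.1 per bin on average. The 50 bases beside a TTAA were unique in the genome for 86.2% of subtelomeric flanks and 97.2% of interior flanks. An insertion next to a repeated flank may be left unplaced by a short read, or placed at another copy. Values on sites with unique flanks alone are therefore given beside the results they change.

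The 5 densest bins, taken with at most 1 per chromosome end, each held a TTAA that was hit in all 20 libraries. These most-hit sites are shown because they carry a large share of the insertions of their bins. Each is read 5′ to 3′ from the plus strand of hg38, with the target TTAA in capitals.
11p site: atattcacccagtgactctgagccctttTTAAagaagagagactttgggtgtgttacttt
18p site: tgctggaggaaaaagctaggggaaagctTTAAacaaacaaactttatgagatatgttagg
1q site: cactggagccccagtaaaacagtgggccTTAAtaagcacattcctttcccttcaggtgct
19p site: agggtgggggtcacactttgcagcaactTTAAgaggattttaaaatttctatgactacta
16p site: cctcattttacctTTAAatagctgtttcat

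The 11p site (chr11:353125-353184) is intergenic, 16343 bp from B4GALNT4, a glycosyltransferase gene, and took 617 insertions, 18.5% of its bin. The 18p site (chr18:814466-814525) is intergenic, 1948 bp from YES1, a SRC-family kinase gene, and took 654 insertions, 11.4% of its bin. The 1q site (chr1:248889701-248889760) is intergenic, 16464 bp from PGBD2, a gene derived from a piggyBac-like element, and took 435 insertions, 11.2% of its bin. No site of these bins was hit alone, since 22 of 23, 70 of 71 and 50 of 54 TTAA sites of the 3 bins held insertions. The 19p site (chr19:516884-516943) lies in an intron of TPGS1, a gene of the tubulin polyglutamylase complex, and took 316 insertions, 45.0% of its bin. The 16p site (chr16:143043-143072) lies in a transcribed but untranslated part of HBZ, the embryonic alpha-like globin gene, and took 519 insertions, 28.1% of its bin. At the 19p site 1 of the 316 insertions was on the plus strand (0.316%), while the plus strand had 51.9% at 11p, 56.7% at 18p, 48.5% at 1q and 32.6% at 16p. Counts at a site have a ceiling, since each of the 26 barcodes of a library was recorded at most once per position and strand. A library held up to 35 insertions at the 11p site, 38 at the 18p site and 19 at the 19p site. How far the ceiling lowers these counts or evens the strands was not tested.

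Libraries held 1509672 to 3596762 insertions, all autosomal ones exactly on a TTAA, and 26 barcodes. The subtelomeric bins received 15115 to 36672 insertions per library and 530244 in all, which was 1.04% of the autosomal insertions on 0.900% of the autosomal TTAA sites. Insertions per TTAA site are given relative to the autosomal mean of the same library (relative density). The density ratio sets the insertions seen near the ends against the number expected if their TTAA sites were hit at the density of the bins 5 to 10 Mb from the same end. Density is per TTAA site of the reference genome and not per copy in K562, a line whose chromosomes are not all present in the same number.

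Taken over all ends, the subtelomeric bins were hit slightly more often than their interiors. With hyPBase the lowest library had a density ratio of 1.02, the median 1.04 and the highest 1.05. With hyPBase-centrip these values were 1.03, 1.05 and 1.06. All 20 libraries lay above 1. The mean ratio was 1.04 ± 0.00894 (SD, n = 10 libraries) with hyPBase and 1.04 ± 0.0101 (SD, n = 10 libraries) with hyPBase-centrip, and an exact two-sided sign-flip permutation test of the log2 ratios gave p = 0.00195 for each helper, the smallest value that 10 libraries allow. The helpers did not differ past the threshold of 0.05 (difference 0.01 on the log2 scale, permutation p = 0.103).

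This small excess depended on single ends and on the reference taken. Without the 3q end the mean was 0.997 with hyPBase and 1.00 with hyPBase-centrip, and 10 of 20 libraries were above 1. Without the 20p end the hyPBase mean was 1.00 and 13 of 20 libraries were above 1. Leaving out any other end kept the mean of each helper above 1, with a highest value of 1.10. Set against bins 2 to 5 Mb from the end, the log2 ratio turned to -0.08 for each helper (exact sign-flip permutation p = 0.00195). On TTAA sites with unique flanks alone it was larger, at 0.22 and 0.23 on the log2 scale. The tests compare libraries and not ends, and over the 39 ends the log2 ratio was 0.05 ± 1.18 (SD).

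The arms lay in the same small range. Long-arm ends had ratios of 1.08 ± 0.0127 (SD, n = 10 libraries) with hyPBase and 1.09 ± 0.00638 (SD, n = 10 libraries) with hyPBase-centrip, above 1 in 20 of 20 libraries. Short-arm ends had 0.992 ± 0.00786 (SD, n = 10 libraries) and 0.991 ± 0.0162 (SD, n = 10 libraries), above 1 in 4 of 20 libraries. The sign-flip permutation test was past the threshold for long arms with either helper (p = 0.00195), for short arms with hyPBase (p = 0.0117) and not for short arms with hyPBase-centrip (p = 0.104). Each arm value pools ends that lie far apart. The long-arm end 3q had a pooled ratio of 5.05. The short-arm end 1p had 0.225 on all sites and 1.28 on unique flanks. The arms were not recomputed without single ends or on unique flanks, so a difference between arms may rest on few ends. On 17 chromosomes with bins on both arms, the 2 ends lay on the same side of 1 on 9.

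**Figure D1:**
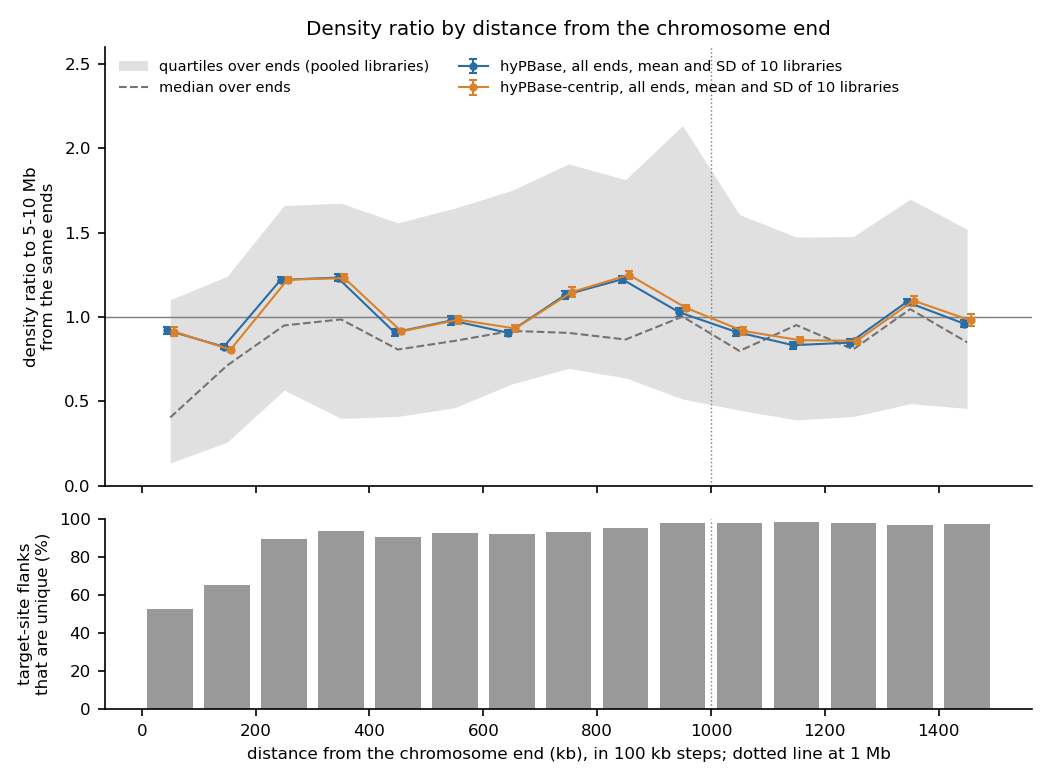
The upper panel plots the density ratio against distance from the chromosome end in 100 kb steps, with points and bars for the mean and SD of 10 libraries per helper, a dashed line for the median over ends and a grey band for the quartiles over ends. The lower panel gives the percent of TTAA flanks that are unique, which is 52.4% in the first step and 97.7% in the step at 900 to 1000 kb.

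On all TTAA sites pooled over ends, the band within 50 kb of an end had the lowest ratio of the 5 distance bands. In the 93 bins within 50 kb of an end the ratio was 0.588 ± 0.0188 (SD, n = 10 libraries) with hyPBase and 0.596 ± 0.0212 (SD, n = 10 libraries) with hyPBase-centrip, below 1 in every one of the 20 libraries. The libraries ran from 0.563 to 0.617 and from 0.551 to 0.625, so the helpers overlapped. These bins lie on 24 ends, of which 7 were above 1 with a median of 0.599, and 43.8% of their flanks were unique. On sites with unique flanks alone the log2 ratio of this band changed sign, from -0.77 to 0.20 with hyPBase and from -0.75 to 0.26 with hyPBase-centrip.

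From 50 to 100 kb the ratio was 1.12 ± 0.0339 (SD, n = 10 libraries) with hyPBase and 1.11 ± 0.0353 (SD, n = 10 libraries) with hyPBase-centrip, yet the median over 34 ends was 0.499 and 12 ends were above 1. This value rested on 1 end. Without the 1q end, whose ratio in this band was 17.5, the log2 ratio went from 0.17 to -0.37 with hyPBase and from 0.14 to -0.39 with hyPBase-centrip. It also turned to -0.13 and -0.14 when each position and strand was counted once, whatever its barcodes. On sites with unique flanks alone it was larger, at 1.00 with hyPBase and 0.99 with hyPBase-centrip on the log2 scale. The unique-flank values of all bands include the 1q end and were not recomputed without it or any other end. From 100 to 200 kb the ratio was 0.824 ± 0.0155 (SD, n = 10 libraries) and 0.807 ± 0.0164 (SD, n = 10 libraries), with 65.0% of flanks unique, and this band too changed sign on unique flanks, to 0.26 and 0.23 on the log2 scale. With distance counted from the first assembled base it was -0.01 for each helper, no longer past the threshold.

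Beyond 200 kb the bands lay above 1. The ratio was 1.12 ± 0.0143 (SD, n = 10 libraries) with hyPBase and 1.13 ± 0.00912 (SD, n = 10 libraries) with hyPBase-centrip from 200 to 500 kb. It was 1.05 ± 0.0150 (SD, n = 10 libraries) and 1.08 ± 0.0145 (SD, n = 10 libraries) from 500 to 1000 kb. The median end had 0.894 and 1.20 in these bands, with 17 and 23 of 39 ends above 1. Against bins 2 to 5 Mb from the end the farther band turned to -0.06 and -0.04 on the log2 scale, and the nearer one was at 0.01 and 0.00, no longer past the threshold. In each of the 5 bands all 20 libraries lay on one side of 1, and the exact sign-flip permutation test gave p = 0.00195 for each helper, which was also the value adjusted over the 5 bands. In 100 kb steps the ratio did not rise evenly, as the plot by distance shows. With hyPBase it was 0.922 in the outermost step, 0.824 in the next, 1.22 and 1.23 from 200 to 400 kb, 0.909 from 400 to 500 kb and 1.22 from 800 to 900 kb. The median over ends was 0.406 in the outermost 100 kb, where 10 of 35 ends were above 1, and 0.713 from 100 to 200 kb, where 13 of 39 were.

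The outermost TTAA that was hit lay 17390 bp from the chromosome end in the median end, and the outermost TTAA of the assembly lay 11619 bp from it. The nearest hit was 11007 bp from the end, on 7q, and the farthest outermost hit was 160916 bp from the end, on 14q, where the first TTAA lies at 160731 bp. Distances count the unassembled bases at the chromosome tips.

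The values on either side of the limits of the rule were as follows. Bins with 10 to 14 TTAA sites had a ratio of 1.38 ± 0.0590 (SD, n = 20 libraries), and the 127 bins just outside, with 5 to 9 sites, had 1.36 ± 0.124 (SD, n = 20 libraries). Bins from 900 to 1000 kb had 1.04 ± 0.0255 (SD, n = 20 libraries) and those from 1000 to 1100 kb had 0.915 ± 0.0236 (SD, n = 20 libraries). The libraries ran from 0.984 to 1.08 inside the 1 Mb limit and from 0.871 to 0.964 outside it, without overlap, whereas they overlapped across the limit on TTAA sites. Some other neighbouring steps of 100 kb differed by more, so the gap does not mark 1 Mb as a boundary. With hyPBase the mean was 1.23 from 300 to 400 kb and 0.909 from 400 to 500 kb. It was 0.849 from 1200 to 1300 kb and 1.09 from 1300 to 1400 kb.

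**Figure D2:**
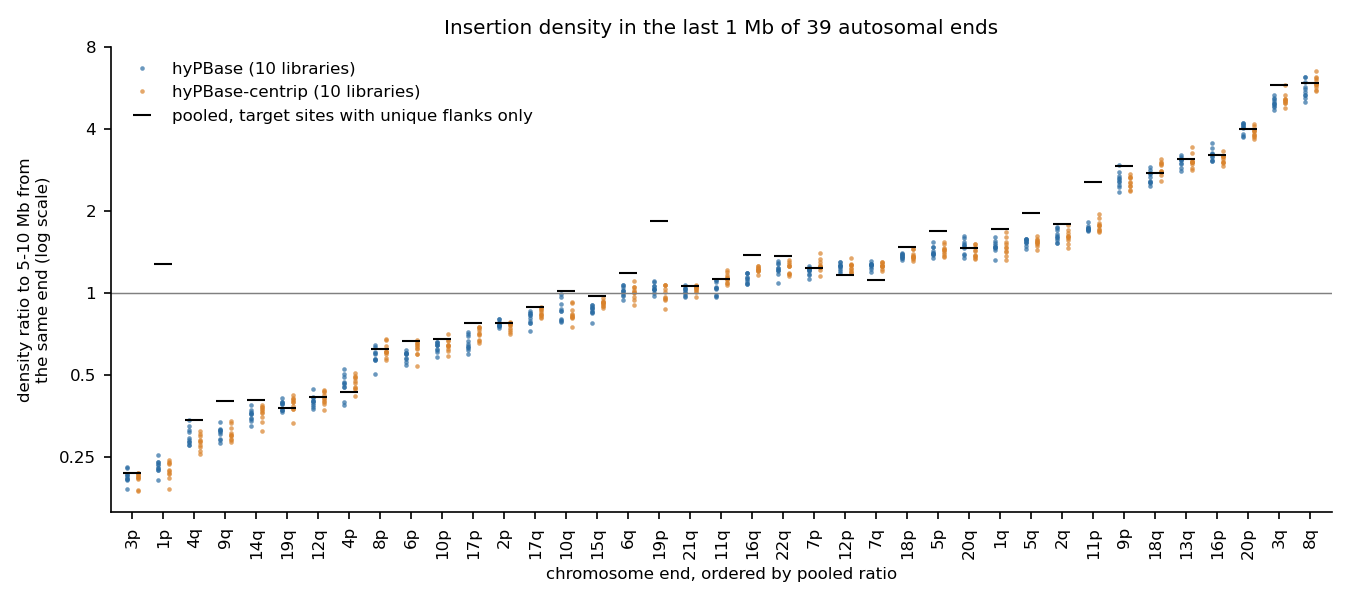
Density ratio to the bins 5 to 10 Mb from the same end (log scale) for each of 39 chromosome ends, with 1 point per library and helper and a black bar for the pooled value on target sites with unique flanks alone. Ends run from 0.210 at 3p to 5.75 at 8q while libraries of an end lie close together, and the 1p bar sits far above its points.

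The ends differed far more than the libraries. The SD of the log2 ratio was 1.18 between the 39 ends and 0.07 between libraries of a helper in the median end. Of the 39 ends 23 lay above 1 and 16 below, 7 were above 2 and 8 were below 0.5. In 35 ends all 20 libraries lay on the same side, 19 above and 16 below, and 4 ends (6q, 11q, 19p and 21q) were split. On unique flanks alone 25 ends lay above 1 and 2 ends changed side, 1p and 10q. Against 2 to 5 Mb 10 ends changed side.

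Among the highest ends, 8q had ratios of 5.03, 5.54 and 6.23 in the lowest, median and highest hyPBase library and 5.49, 5.86 and 6.54 with hyPBase-centrip. The 3q end had 4.68, 4.97 and 5.34 with hyPBase and 4.77, 5.10 and 5.81 with hyPBase-centrip. No library of either end came below 4, and the helpers overlapped at both. The pooled ratio was 3.94 at 20p, 3.16 at 16p and 3.03 at 13q. The interiors of these ends were sparsely hit, with relative densities of 0.236 at 8q, 0.365 at 3q, 0.495 at 20p, 0.855 at 16p and 0.665 at 13q, and the end bins themselves had 1.36, 1.84, 1.95, 2.70 and 2.02. Set against 2 to 5 Mb the 3q ratio was 0.688, below 1, and the 8q ratio was 1.15.

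Among the lowest ends, 3p had ratios of 0.190, 0.210 and 0.229 in the lowest, median and highest hyPBase library and 0.187, 0.211 and 0.219 with hyPBase-centrip. Flanks at 3p were 94.8% unique and its ratio on unique flanks was 0.217. This end is poor in genes, with a start site in 1.01% of its bins. The 1p end had 0.206, 0.231 and 0.254 with hyPBase and 0.191, 0.223 and 0.243 with hyPBase-centrip. There 16.3% of flanks were unique, and the pooled ratio went from 0.225 to 1.28 on sites with unique flanks, so the side of 1 on which this end falls depends on the sites counted. The pooled ratio was 0.291 at 4q, 0.307 at 9q and 0.358 at 14q, and 0.343, 0.401 and 0.404 on unique flanks. At 9q the end bins had a relative density of 0.803 beside the densest interior of all ends, 2.62. The copy numbers of the 9q end and interior in K562 were not available, so their part in this ratio was not tested. Set against 2 to 5 Mb the ratio was 0.626 at 9q, 0.274 at 3p and 0.401 at 1p. It was 0.250 at 4q and 0.256 at 14q.

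Across the 39 ends the log2 ratio went with several measures the rule did not use. Spearman's rho was 0.61 for the GC content of the end bins minus that of the interior, 0.58 for the difference in the share of bins with a start site and 0.23 for the share of unique flanks. It was 0.72 for the reads per insertion, end bins over interior, which come from the same libraries. The rho of -0.50 with the relative density of the interior is in part built in, since that density is the denominator. The relative densities of end bins and interior themselves had a rho of 0.11. These are descriptions over ends that share libraries, and no test was made.

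**Figure D3:**
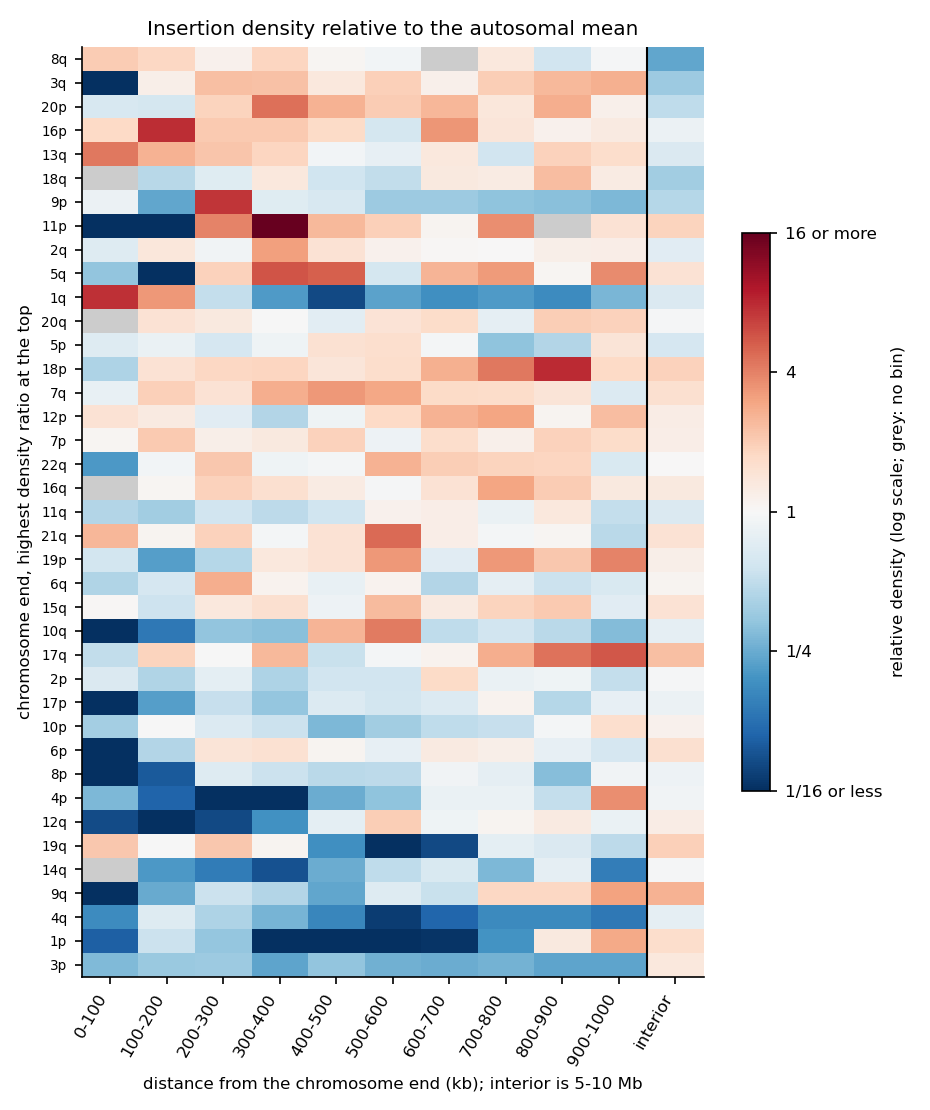
Relative density (insertions per TTAA site over the autosomal mean, log colour scale) in 100 kb steps from the chromosome end for 39 ends, with the interior 5 to 10 Mb from the end in the last column and grey where no bin qualifies. Dense steps, such as 300 to 400 kb at 11p with 18.5, stand beside sparse ones at the same end, and the outermost step is at or below 1/16 at several ends.

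Within an end the density was uneven. Of 384 steps of 100 kb, 178 were above the autosomal mean, 8 were above 5 and 24 were below 0.1. The densest step lay 300 to 400 kb from the 11p end, with 11794 insertions on 226 TTAA sites and a relative density of 18.5. The next were 800 to 900 kb at 18p (7.94), 100 to 200 kb at 16p (7.75), the outermost 100 kb of 1q (7.51) and 200 to 300 kb at 9p (7.33). At 1q the outermost 200 kb were above the mean and the step from 400 to 500 kb had 0.0814, with 33.4% of flanks unique. No insertion was recorded in 5 steps, at 300 to 400 and 400 to 500 kb of 1p and in the outermost step of 3q, 8p and 17p, where 0.685%, 0.325%, 1.02%, 6.21% and 13.8% of flanks were unique. Other sparse steps had unique sequence, such as 300 to 400 kb at 4p with 70 insertions on 606 TTAA sites, a relative density of 0.0410 and 95.9% unique flanks. These steps were singled out after their values were seen.

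Single bins spread more widely near the ends than in the interior. The median relative density was 0.669 near the ends, 0.551 in the interior and 0.521 over all autosomal bins. Of the subtelomeric bins 418 (11.8%) fell below the 5th percentile of interior bins and 375 (10.6%) above their 95th percentile. Subtelomeric bins hold fewer TTAA sites, with a median of 44 against 57, and more repeated flanks. The tails were not recomputed on bins alike in TTAA sites or on unique bins. The densest 10% of subtelomeric bins held 49.8% of the insertions, against 51.6% for the interior and 50.1% for all bins. No insertion was recorded in 107 subtelomeric bins (3.01%), in 87 interior bins (0.449%) and in 2.48% of all bins. Of those 107, 93 had under 50% unique flanks, 11 had at least 90%, and 62 lay within 200 kb of the end.

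The densest bin, 350 to 360 kb from the 11p end (chr11:350001-360000), held 3343 insertions on 23 TTAA sites, a relative density of 51.6. The libraries held 114, 166 and 186 insertions (lowest, median, highest) with hyPBase and 132, 175 and 204 with hyPBase-centrip. It overlaps no protein-coding gene, and the nearest, B4GALNT4, is 9499 bp away. The bin at 810 to 820 kb of 18p (chr18:810001-820000) held 5725 insertions and a relative density of 28.6, and overlaps the start of YES1. The bin at 60 to 70 kb of 1q (chr1:248886423-248896422) had 3900 insertions and 25.6, in intergenic sequence 9774 bp from PGBD2. The bin at 510 to 520 kb of 19p (chr19:510001-520000) had 702 insertions and 20.8, within TPGS1. The bin at 140 to 150 kb of 16p (chr16:140001-150000) had 1848 insertions and 19.3, and overlaps HBZ. In each of these bins every library had insertions, with a lowest count of 24 in the 19p bin, and the ranges of the helpers overlapped.

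The sparsest bins with at least 90% unique flanks held 0 insertions in all 20 libraries on 94 TTAA sites at 14q, 73 at 4p, 73 at 5q and 48 at 19q. A count of 0 allows up to 3 insertions, which is a relative density of at most 0.0113, 0.0146, 0.0146 and 0.0222. This covers counting error only. The 14q bin (chr14:106083719-106093718) lies 553521 bp from TMEM121, the nearest gene annotated as protein-coding, in the megabase that holds the immunoglobulin heavy chain segments. The 4p bin (chr4:370001-380000) overlaps ZNF141 and the 19q bin (chr19:57977617-57987616) overlaps ZNF606, each encoding a zinc finger protein. The 5q bin (chr5:180968260-180978259) lies 10587 bp from BTNL3, a butyrophilin-like gene. The 12q bin (chr12:133185310-133195309), over ZNF268, had 1 insertion on 45 sites.

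**Figure D4:**
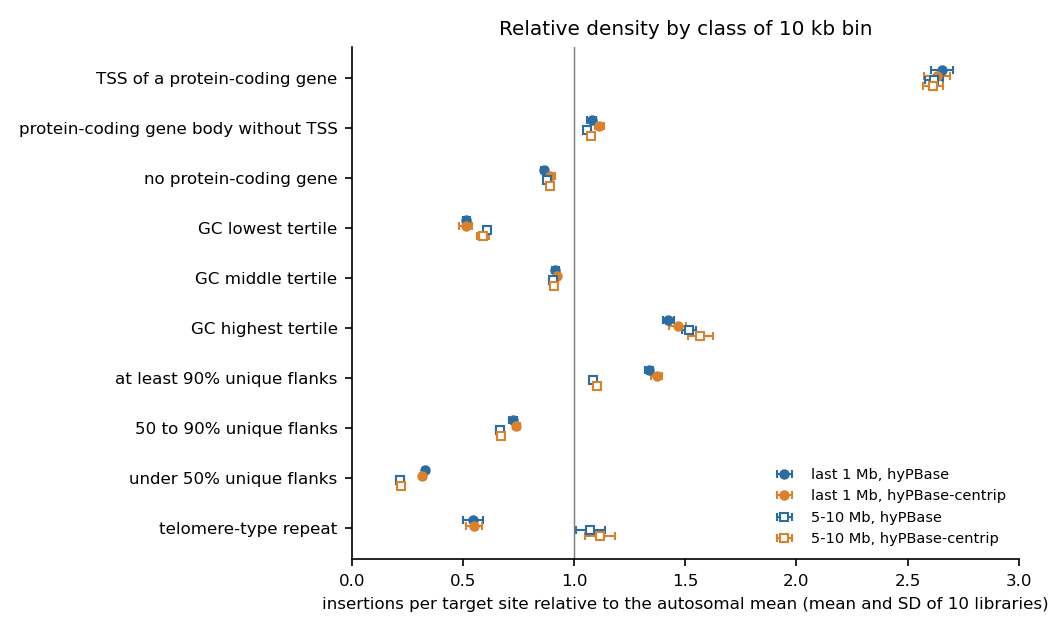
Insertions per target site relative to the autosomal mean for 10 classes of 10 kb bin, as mean and SD of 10 libraries per helper, with filled circles for the last 1 Mb and open squares for 5 to 10 Mb from the same ends. Bins with a start site (TSS) sit near 2.6 in both zones, and bins with a telomere-type repeat sit near 0.5 at the ends and 1.1 in the interior.

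Bins with a transcription start site were the densest class near the ends as elsewhere. With hyPBase their relative density was 2.66 ± 0.0484 (SD, n = 10 libraries) near the ends and 2.62 ± 0.0405 (SD, n = 10 libraries) in the interior, a ratio of 1.01. Gene bodies without a start site had 1.08 ± 0.0182 (SD, n = 10 libraries) and 1.06 ± 0.00920 (SD, n = 10 libraries). Bins without a protein-coding gene had 0.863 ± 0.0120 (SD, n = 10 libraries) and 0.876 ± 0.0120 (SD, n = 10 libraries). The ratio of the zones is the relative density near the ends over that in the interior. Unlike the density ratio, it does not match each end to its own interior. Over all bins the mean relative densities with hyPBase were 1.15 near the ends and 1.05 in the interior. In these classes the ratio of the zones lay between 0.986 and 1.03 with either helper. It was past the threshold in each class with hyPBase (adjusted sign-flip permutation p from 0.00559 to 0.00868) and in gene bodies with hyPBase-centrip (0.00279). Start-site bins made up 13.0% of the bins near the ends and 7.39% in the interior.

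On all TTAA sites, the subtelomeric bins were sparser than the interior within the highest and the lowest GC tertile. In the highest GC tertile (above 42.2% GC), which held 72.9% of subtelomeric and 51.5% of interior bins, the relative density with hyPBase was 1.42 ± 0.0252 (SD, n = 10 libraries) near the ends and 1.52 ± 0.0328 (SD, n = 10 libraries) in the interior. The ratio was 0.939 with hyPBase and 0.936 with hyPBase-centrip, below 1 in 20 of 20 libraries. In the lowest tertile (below 37.8% GC) it was 0.849 and 0.865, again below 1 in 20 of 20. In the middle tertile it was 1.01 for each helper, above 1 in 15 of 20 libraries (adjusted sign-flip permutation p = 0.178 with hyPBase and 0.0366 with hyPBase-centrip). For the highest and lowest tertiles the exact sign-flip permutation p adjusted over 10 classes was 0.00325 with hyPBase and 0.00279 with hyPBase-centrip. The classes by gene and by GC were not recomputed on sites with unique flanks. Over all bins 86.2% of flanks were unique near the ends and 97.2% in the interior, so the zones in a tertile may differ in this too.

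Bins near the ends were denser than interior bins in each class by share of unique flanks, so this was not particular to unique sequence. In bins with at least 90% unique flanks the relative density with hyPBase was 1.34 ± 0.0178 (SD, n = 10 libraries) near the ends and 1.08 ± 0.00905 (SD, n = 10 libraries) in the interior, a ratio of 1.23, and with hyPBase-centrip the ratio was 1.25. In bins with 50 to 90% unique flanks the ratio was 1.09 with hyPBase and 1.10 with hyPBase-centrip. In bins with under 50% unique flanks the relative density with hyPBase was 0.328 ± 0.00891 (SD, n = 10 libraries) near the ends and 0.216 ± 0.0160 (SD, n = 10 libraries) in the interior. The ratio in these bins was 1.52 with hyPBase and 1.44 with hyPBase-centrip. Such bins made up 10.0% of the subtelomeric and 1.33% of the interior bins. Bins with a telomere-type repeat had 0.544 ± 0.0438 (SD, n = 10 libraries) near the ends and 1.07 ± 0.0650 (SD, n = 10 libraries) in the interior, a ratio of 0.509, below 1 in 20 of 20 libraries. Adjusted p was 0.00325 with hyPBase and 0.00279 with hyPBase-centrip for each of these classes (exact sign-flip permutation test). The class with a telomere-type repeat was counted on all TTAA sites and was not recomputed on unique flanks.

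Genes were grouped by class, and those with at least 5 TTAA sites between their start and end were set against the interior of their own end. Over all 529 such protein-coding genes near the ends, 262 were denser and 267 sparser than that interior, with a median relative density of 1.06. The level of a gene here is insertions per TTAA site within it, relative to the autosomal mean. The list counts are descriptions and carry no test.

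The alpha-globin locus of 16p was dense. K562 cells are of the erythroid line and make embryonic and fetal globins. All 5 genes of the locus with at least 5 sites were denser than the 16p interior, with a median relative density of 3.07. HBZ had 22.2 ± 2.23 (SD, n = 10 libraries) with hyPBase and 20.4 ± 2.05 (SD, n = 10 libraries) with hyPBase-centrip. NPRL3, whose introns hold the distal enhancers of the locus, had 7.59 ± 1.12 (SD, n = 10 libraries) and 7.52 ± 0.557 (SD, n = 10 libraries). LUC7L, a splicing factor gene beyond the globin genes, had 0.926 ± 0.243 (SD, n = 10 libraries) and 0.985 ± 0.221 (SD, n = 10 libraries). HBA1 and HBA2, the adult alpha-globin genes, hold 2 TTAA sites each, none with unique flanks, and HBQ1 holds none.

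Of the listed leukocyte genes 7 of 10 were above their interiors, with a median relative density of 3.00. Those above came mostly from 2 short stretches, IFITM1, IFITM2 and IFITM3 on 11p and PRTN3, ELANE and CFD on 19p, and PDCD1 was the other. The count does not describe leukocyte genes as a class. The interferon-induced membrane protein genes of 11p stood out. IFITM1 had 50.0 ± 4.88 (SD, n = 10 libraries) with hyPBase and 49.7 ± 6.86 (SD, n = 10 libraries) with hyPBase-centrip. IFITM3 had 13.8 ± 1.71 (SD, n = 10 libraries) and 14.9 ± 1.66 (SD, n = 10 libraries), and IFITM2 had 11.3 ± 1.53 (SD, n = 10 libraries) and 11.8 ± 2.24 (SD, n = 10 libraries). The midpoints of the 3 genes lie 306.5 to 324.6 kb from the end, in the densest 100 kb step of all. On 19p, where neutrophil granule protease genes lie side by side, PRTN3 (proteinase 3) had pooled relative densities of 8.16 and ELANE (neutrophil elastase) of 4.41 on 7 TTAA sites each, while AZU1 (azurocidin) held 13 insertions on 10, too few to rank. IRF4, a lymphoid transcription factor gene on 6p, had 0.979, which was 0.628 times its interior. PDCD1, which encodes the PD-1 receptor, had 0.839 on 26 insertions, which was 1.15 times its interior.

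Housekeeping genes were divided, 11 of 20 above and 9 below their interiors, with a median of 1.46. RACK1, a ribosomal scaffold gene on 5q, had 8.89 ± 1.28 (SD, n = 10 libraries) with hyPBase and 8.30 ± 0.826 (SD, n = 10 libraries) with hyPBase-centrip. RPL35A, a ribosomal protein gene on 3q, had 4.73 ± 0.995 (SD, n = 10 libraries) and 4.25 ± 0.581 (SD, n = 10 libraries). CSNK2A1, the casein kinase 2 catalytic subunit on 20p, had 1.93 ± 0.208 (SD, n = 10 libraries) and 1.80 ± 0.138 (SD, n = 10 libraries). KDM5A, a histone demethylase gene on 12p, had 0.428 ± 0.0786 (SD, n = 10 libraries) and 0.405 ± 0.0437 (SD, n = 10 libraries). At 19q, TRIM28, the corepressor that zinc finger proteins recruit, held 4 insertions and CHMP2A, an ESCRT-III gene, held 3, on 6 and 5 TTAA sites, too few insertions to rank them.

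Neural genes were mostly below, 5 of 7, with a median of 0.588. CHL1, a neural cell adhesion gene at the sparse 3p end, had 0.299 ± 0.0182 (SD, n = 10 libraries) with hyPBase and 0.292 ± 0.0324 (SD, n = 10 libraries) with hyPBase-centrip. CACNA1B, a neuronal calcium channel gene on 9q, had 0.359 ± 0.0564 (SD, n = 10 libraries) and 0.349 ± 0.0509 (SD, n = 10 libraries). VIPR2, a neuropeptide receptor gene on 7q, and MYT1, a neural zinc finger gene on 20q, were the 2 above, with pooled values of 1.62 and 1.16.

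The list made for families duplicated between chromosome ends was divided, but it also holds beta-defensin genes that lie at 20p alone. Of the 25 listed genes 20 had at least 5 sites, 12 of them below and 8 above their interiors, with a median relative density of 0.616 and a median of 41.8% of sites with unique flanks. FRG2, FRG2B and FOXD4 held no insertion, and none of their TTAA sites has unique flanks. DUX4 on 4q, a germline transcription factor gene in a macrosatellite repeat, held 2 insertions on 30 sites. Few unique sites did not always go with few insertions. ZNG1A of 9p, with 7.69% of sites unique, had a pooled value of 0.192, while WASHC1 of 9p, with 6.05% unique, had 0.900, which was 1.99 times its interior. OR4F17 of 19p, an olfactory receptor gene with 0% of sites unique, held 338 insertions at 1.58, which was 1.34 times its interior. Where flanks are repeated an insertion may have been placed at another copy, so the values of WASHC1 and OR4F17 may not belong to these loci. The beta-defensin genes of 20p, which encode antimicrobial peptides, have unique sites, and all 6 lay above the sparse 20p interior, from 0.770 at DEFB125 to 3.96 at DEFB132. They made up 6 of the 8 listed genes above their interiors, and WASHC1 and OR4F17 were the others.

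Olfactory receptor and zinc finger genes lie in clusters near several ends and were counted by symbol after the sparse bins had been seen. Of 26 olfactory receptor genes with at least 5 sites 22 were sparser than their interior, with a median relative density of 0.235, and 28 of the 40 in all lie at 1q. The highest was OR2V2 on 5q with 1.98. Of 52 genes named ZNF 37 were sparser, with a median of 0.422, and 27 of the 53 in all lie at 19q. The zinc finger genes ran from 0.0104 at ZNF418 on 19q, with 1 insertion on 34 sites, to 7.49 at ZNF512B on 20q. The median share of unique sites was 93.0% and 98.2% in these families. No test was made.

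Orientation leaned away from the chromosome ends by a small margin. An insertion was counted as facing the end when its recorded strand pointed outward, plus on long arms and minus on short arms. In the subtelomeric bins 48.0, 48.4 and 48.7% faced the end (lowest, median, highest library) with hyPBase and 48.1, 48.5 and 49.1% with hyPBase-centrip, below 50% in all 20 libraries (exact two-sided sign-flip permutation p = 0.00195 for each helper). With barcodes collapsed the mean difference from 50% shrank from -1.62 to -0.773 percentage points with hyPBase and from -1.45 to -0.656 with hyPBase-centrip (p = 0.00195 for each in the same permutation test). In the interior the mean was 50.2 ± 0.171% (SD, n = 10 libraries) and 50.1 ± 0.127% (SD, n = 10 libraries). Within 200 kb of the end the means were 45.8 ± 0.663% (SD, n = 10 libraries) and 46.2 ± 0.517% (SD, n = 10 libraries). The ends again differed more than the libraries. They ran from 40.5% at 9q to 61.8% at 9p, 13 of 39 were above 50%, and all libraries lay on one side of 50% in 17. The pooled share weights ends by their insertions and was not recomputed without single ends. The 18p end, with the most insertions (44788 of 530244), had 42.1%. Interior stretches ran from 42.3 to 56.5%. The helpers did not differ past the threshold (0.171 percentage points, permutation p = 0.174).

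Reads per insertion were slightly higher near the ends. With hyPBase the mean was 4.30 ± 0.865 (SD, n = 10 libraries) near the ends and 4.16 ± 0.807 (SD, n = 10 libraries) in the interior. With hyPBase-centrip it was 3.28 ± 0.638 (SD, n = 10 libraries) and 3.21 ± 0.603 (SD, n = 10 libraries). Within libraries the ratio was 1.03 and 1.02, above 1 in all 10 hyPBase libraries and in all but 1 of the hyPBase-centrip libraries (exact two-sided sign-flip permutation p = 0.00195 and 0.00391). By end the pooled ratio ran from 0.721 at 3p to 1.37 at 8q, which were also the lowest and the highest end by density ratio.

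**Figure D5:**
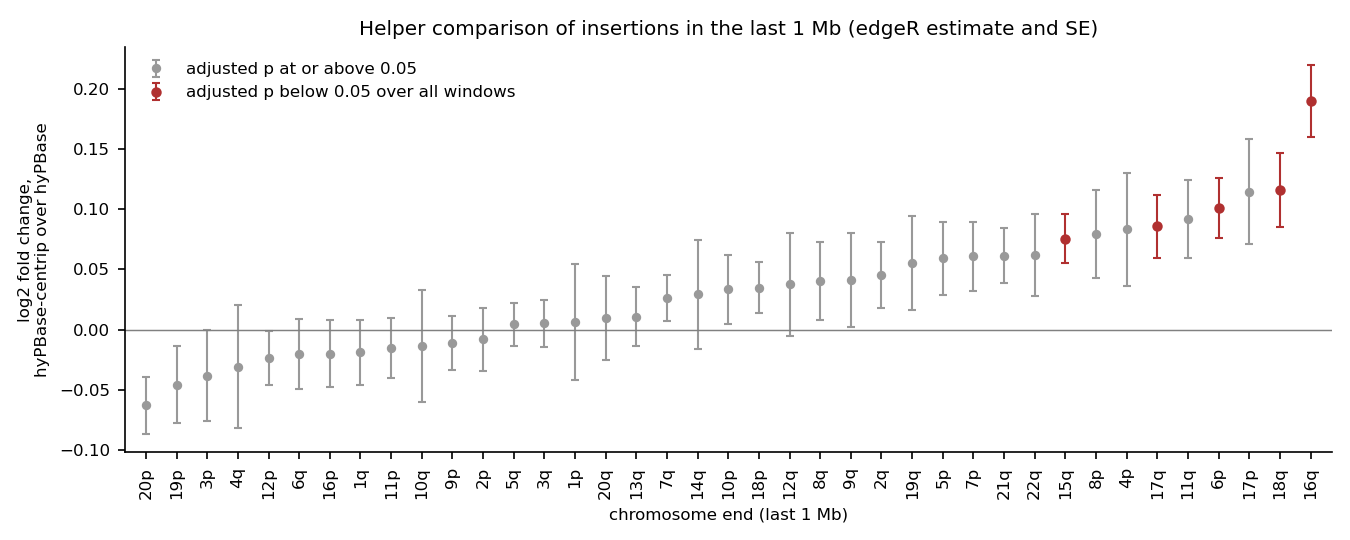
Log2 fold change of insertions in the last 1 Mb, hyPBase-centrip over hyPBase, with its standard error for 39 chromosome ends from edgeR fitted over all autosomal 1 Mb windows. The 5 ends past the threshold are marked in red and lie between 0.08 and 0.19.

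The helper comparison over 1 Mb windows laid from each end found 5 of the 39 end windows changed, all higher with hyPBase-centrip, where 8.13% of all 2695 autosomal windows were called, 4.3% higher and 3.82% lower (edgeR quasi-likelihood test, Benjamini-Hochberg adjusted p below 0.05 over all windows). The median log2 fold change was 0.03 over end windows and -0.00 over all windows. At 16q the libraries had 212, 225 and 252 CPM (insertions scaled to library size; lowest, median, highest) with hyPBase and 248, 258 and 294 with hyPBase-centrip (log2 fold change 0.19 ± 0.03 (SE), adjusted p = 4.15e-05 in edgeR). At 6p they had 271, 285 and 296 and then 288, 307 and 321 (0.10 ± 0.02 (SE), adjusted p = 0.00781 in edgeR). The same direction was called at 18q (0.12 ± 0.03 (SE), adjusted p = 0.0125 in edgeR), 15q (0.08 ± 0.02 (SE), adjusted p = 0.0137 in edgeR) and 17q (0.09 ± 0.03 (SE), adjusted p = 0.0329 in edgeR). The groups overlapped at every one of these ends.

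The density ratio of each end, which sets an end against its own interior, differed between helpers at 3 of 39 ends, higher with hyPBase-centrip at each (permutation test adjusted over 39 ends). The log2 difference was 0.11 at 16q (adjusted permutation p = 0.0039), 0.09 at 15q (adjusted permutation p = 0.00702) and 0.12 at 11q (adjusted permutation p = 0.0122). At 16q hyPBase libraries lay from 1.08 to 1.19 and hyPBase-centrip libraries from 1.17 to 1.26. By band, the ratio from 500 to 1000 kb was 0.03 higher on the log2 scale with hyPBase-centrip (permutation p adjusted over 5 bands = 0.0343), and the other 4 bands did not pass, with adjusted permutation p from 0.0793 to 0.802. With barcodes collapsed to 1 count per position and strand no end passed.

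Over 10 kb bins with at least 100 summed insertions, 10 of 1379 subtelomeric bins were called, where 0.493% of all 122226 bins were. Of the 10, 5 were higher with hyPBase-centrip, against 0.114% of all bins, and 5 lower, against 0.379%. DESeq2 called 6 of the 10, 1 of those higher and the 5 lower. Among those higher, 2 lie in ANKRD11, a chromatin regulator gene on 16q (chr16:89358346-89368345 and chr16:89398346-89408345). The libraries of the former held 4, 6 and 15 insertions with hyPBase and 9, 15.5 and 23 with hyPBase-centrip (log2 fold change 0.92 ± 0.20 (SE), adjusted p = 0.00278 in edgeR). The others were a bin 5154 bp from EXOC2, an exocyst subunit gene on 6p (0.69 ± 0.16 (SE), adjusted p = 0.0104 in edgeR), one in COLEC12, a scavenger receptor gene on 18p (0.72 ± 0.17 (SE), adjusted p = 0.0142 in edgeR), and one over CLUL1 and the start of TYMS, the thymidylate synthase gene on 18p (0.34 ± 0.08 (SE), adjusted p = 0.0162 in edgeR).

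Among the bins lower with hyPBase-centrip, 2 neighbours on 20p cover TRIB3, a stress-induced pseudokinase gene. At chr20:370001-380000 the libraries held 48, 73 and 89 insertions with hyPBase and 32, 56 and 87 with hyPBase-centrip (log2 fold change -0.50 ± 0.08 (SE), adjusted p = 8.53e-06 in edgeR). At chr20:360001-370000 they held 47, 56 and 79 and then 31, 48 and 59 (-0.52 ± 0.09 (SE), adjusted p = 2.75e-05 in edgeR). The third 20p bin overlaps the start of RBCK1, a subunit gene of the linear ubiquitin ligase (-0.48 ± 0.10 (SE), adjusted p = 0.00264 in edgeR). The last 2 overlap DOCK8, a guanine nucleotide exchange factor gene on 9p (-0.32 ± 0.07 (SE), adjusted p = 0.0051 in edgeR), and the start of DYNC2I1, a ciliary dynein gene on 7q (-0.22 ± 0.06 (SE), adjusted p = 0.0396 in edgeR). The raw counts of the groups overlapped in each of these bins, but scaled to library size those at chr20:370001-380000 did not, with 26.2 to 38.4 CPM with hyPBase and 16.2 to 24.4 CPM with hyPBase-centrip. The scaled ranges of the other 4 lower bins overlapped.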

How the data were processed

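The authors deposited 1 qbed file per library, with 1 line per insertion giving position on hg38, count of reads, strand and barcode. These counts are raw. The submitters' processing notes name Trimmomatic, BWA and SAMtools, and parameters and versions are not given in the sources used here. Each line was counted as 1 insertion. The 20 libraries with a helper label were used, and 2 with conflicting labels entered no comparison. Depth is given in the text, and limits for counts of 0 cover counting error only.

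Bins of 10 kb were laid from each chromosome end, TTAA sites were found by script in hg38, and gene models came from GENCODE release 44. A flank was unique when its 50 bases occurred beside no other TTAA of the non-alternate genome. Ratios were tested within helpers by exact two-sided sign-flip permutation tests and between helpers by two-sided permutation tests with 100000 resamples, with Benjamini-Hochberg adjustment. Insertions per bin and per 1 Mb window with at least 100 summed insertions were tested between helpers by the quasi-likelihood method of edgeR 4.0.16 after TMM scaling (R 4.3.3), and DESeq2 1.42.0 was an alternative. Scripts in Python 3.11.15 with numpy 2.4.6 and pandas 2.3.3 were tested on simulated data, and figures were drawn with matplotlib 3.10.9.

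The bins, gene lists, tests and rule for naming items were chosen with earlier results of these data known. The rule named the 5 highest and 5 lowest ends by pooled ratio, the 5 densest and 5 sparsest bins with at most 1 per end (the sparsest with at least 90% unique flanks), the most-hit site of each of those 5 densest bins, and, for the helper comparison, the 5 bins and 5 end windows with the smallest adjusted p per direction. Genes were listed by class and kept when their midpoint lay within 1 Mb of an end. Alternatives changed the minimum reads, the barcodes, the TTAA minimum, the flanks, the origin of distance, the interior, the weighting of ends, the normalization, the filter and the block, and left out hyPBase-centrip replicate 3, the library with the fewest insertions of its helper.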

Additional observations from a re-analysis of the deposited data

Results flagged for a closer look

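No library stood far from the other libraries of its helper in the 36 groups of 10 that were checked, for the overall ratio, the 5 bands, the 10 named ends, orientation and reads per insertion. Chance marks about 1 in 20 such groups.

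Differences between helpers past the threshold are given as hyPBase-centrip minus hyPBase on the log2 scale. The density ratio from 500 to 1000 kb differed by 0.0274 (permutation p adjusted over 5 bands = 0.0343). The density ratio differed by 0.123 at the 11q end (adjusted permutation p = 0.0122), by 0.0875 at 15q (adjusted permutation p = 0.00702) and by 0.111 at 16q (adjusted permutation p = 0.0039). With barcodes collapsed none of the ends passed. Reads per insertion near the ends over the interior differed by -0.0169 (permutation p = 0.0372), which was no longer past 0.05 with barcodes collapsed or without hyPBase-centrip replicate 3. Helper and preparation cannot be told apart in these differences.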

How the results depend on the processing

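Of 190 recomputed values, 154 kept their direction and side of the threshold or, for counts, stayed within 1.5 times the count given. Values below are log2 unless a count is named, hyPBase before hyPBase-centrip. Against 2 to 5 Mb the overall ratio was -0.0769 and -0.0755, the 200 to 500 kb band 0.00904 and 0.00265 (no longer past the threshold), and the 500 to 1000 kb band -0.0587 and -0.0398, with a helper difference of -0.00639 at 200 to 500 kb. Without the 3q end the overall ratio was -0.00398 and 0.00679, and without the 20p end 0.00125 with hyPBase. On unique flanks, with the 1q end kept, the bands gave 0.20 and 0.26 at 0 to 50 kb and 0.26 and 0.23 at 100 to 200 kb. The same setting raised the 50 to 100 kb band to 0.995 and 0.99. The 50 to 100 kb band was -0.13 and -0.14 with barcodes collapsed and -0.37 and -0.39 without the 1q end. The ends left out were chosen after the data were seen. From the first assembled base the 100 to 200 kb band was -0.00516 and -0.0142, and helper differences were -0.00574 at 0 to 50 kb, -0.00903 at 100 to 200 kb and -0.00362 at 200 to 500 kb. The cause of these changes was not tested.

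The overall helper difference passed the threshold with at least 2 reads per insertion (0.022), on unique flanks (0.0137) and with ends weighted equally (0.017), and not otherwise (permutation p from 0.0151 to 0.836 over the alternatives). The helper difference at 100 to 200 kb, with an unadjusted permutation p of 0.0317, did not hold with at least 2 reads (-0.0183), on unique flanks (-0.0309) or without hyPBase-centrip replicate 3 (-0.0269). For reads per insertion it did not hold with barcodes collapsed (-0.0177) or without that library (-0.0131). Ends that differed between helpers numbered 3, and 0 with barcodes collapsed. Bins called numbered 602 of all, 311 without the filter on summed insertions and 353 with at least 2 reads. Subtelomeric bins called numbered 10, and 6 in DESeq2. Windows called numbered 219 of all and 441 with library size as a term.

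Replicate numbers did not pair the libraries. Same-numbered libraries of the helpers had a median correlation of their deviations of -0.00461 over bins and -0.0258 over windows, with 0 and 1 of 10 over 0.1, and 2 and 1 of 10 libraries correlated best with their own number. A fit with the replicate number as a block called 504 bins in place of 602 and 201 windows in place of 219, of which 9 and 6 were subtelomeric, and the overall helper difference under the block was 0.01 (exact sign-flip permutation p = 0.16). Bands, single ends, orientation and reads per insertion were not refitted with the block. At these depths a bin with few TTAA sites has a wide counting error, and edgeR was run on bins with at least 100 summed insertions only.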

Other observations

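The 2 libraries whose title and description name different helpers had density ratios of 1.07 and 1.10 over all subtelomeric bins, with 2380727 and 1854375 insertions. Their ratios were 0.664 and 0.620 from 0 to 50 kb, 1.07 and 1.04 from 50 to 100 kb, 0.799 and 0.836 from 100 to 200 kb, 1.17 and 1.19 from 200 to 500 kb, and 1.10 and 1.14 from 500 to 1000 kb.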
